A study of Mus musculus with 30 samples.

Results

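The 14 libraries described here are samples of white adipose tissue, sorted by the state of the circadian clock as read from a pair of its transcripts. They were taken from 29 libraries with counts (30 labelled samples). For each library a score was computed as log2(Dbp CPM + 1) minus log2(Arntl CPM + 1), where CPM is the estimated count per 1e6 counts of the library. The 7 highest scores formed the high-score class and the 7 lowest the low-score class. The libraries G-L140 and G-L142, also of adipose tissue, were left out by the rule and are used below only as libraries that did not shape the classes. The members were chosen by the measured Dbp and Arntl levels, so these are given without a test and support nothing.

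All mice were male C57BL/6J. They had been injected with an adeno-associated virus vector, AAV8-GFP or AAV8-F11, and were kept on a high-fat diet (HFD) plus l-NAME, which blocks nitric oxide synthases. The diet lasted 7 weeks, and the mice were 15 weeks old at collection. GFP is green fluorescent protein, F11 encodes coagulation factor XI, and every group shared the diet and carried a vector. The labels give neither the fat depot nor the hour of collection. They do not say that each library came from a separate animal. The p-values therefore reflect only how far these samples spread, part of which may be technical. The high-score class held 5 F11 and 2 GFP libraries, the low-score class 2 F11 and 5 GFP libraries, and the vector was a covariate in the fits. Totals were 17.64 to 26.33 (1e6 counts) in the high-score class and 16.76 to 22.53 in the low-score class. Mitochondrial transcripts took 4.53 to 6.71% and 3.89 to 4.88% of counts.

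The mammalian clock is a transcriptional feedback loop. BMAL1 (the product of Arntl) pairs with CLOCK or NPAS2, binds E-box sequences and drives the genes of its own repressors, the PER and CRY proteins, and of the receptors REV-ERB alpha and beta (Nr1d1 and Nr1d2). The REV-ERBs repress Arntl, Npas2, Clock and Nfil3 through ROR elements (ROREs), while the PAR bZIP factors DBP, TEF and HLF carry the rhythm to outputs through D-boxes, so that Dbp and Arntl peak at opposite times of day. In adipose tissue the clock is known to time lipid storage, lipolysis and the release of adipokines.

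The score ran from 0.377 in G-L133 to 3.88 in G-L145. Dbp was lowest at 42.5, median 61.4 and highest at 75.5 CPM in the high-score class, and 21.7, 31.1 and 34.7 CPM in the low-score class. Arntl was 4.22, 6.74 and 9.88 CPM in the high-score class and 11.4, 12.8 and 16.5 CPM in the low-score class. The libraries next to the boundary were G-L147, at 2.00 the lowest of the high-score class, and G-L138, at 1.44 the highest of the low-score class. The left-out G-L142 lay between them at 1.53, and the left-out G-L140 lay above every classed library at 3.94. The vector was not used to compute the score. The mean score was 2.41 ± 1.04 (SD, n = 7) with F11 and 1.51 ± 0.886 (SD, n = 7) with GFP, a difference of 0.898 that did not pass a two-sided exact permutation test over 3432 splits (p = 0.117). Without the GFP library G-L137 the difference was 1.15 (exact permutation p = 0.046), and over all 16 adipose libraries it was 0.485 (exact permutation p = 0.383).

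**Figure D1:**
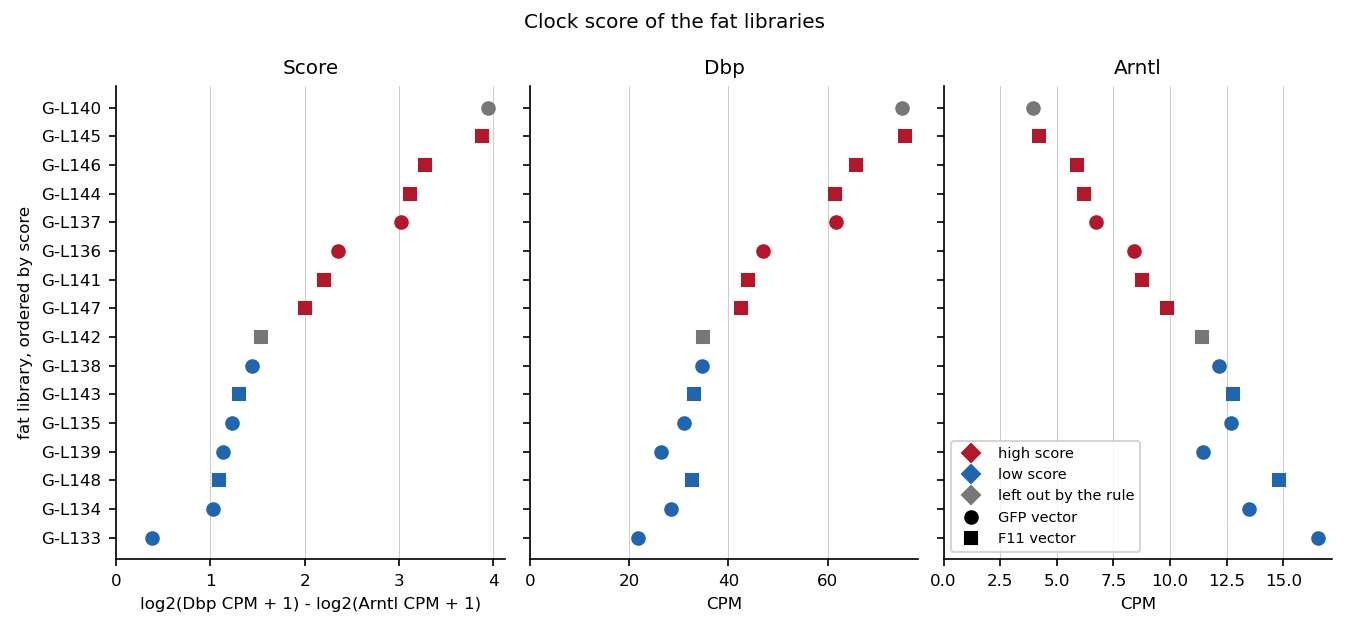
Score (log2), Dbp and Arntl (CPM) in each adipose library, ordered by score; red marks the high-score class, blue the low-score class and grey the libraries left out by the rule, with circles for GFP and squares for F11. G-L140 sits above the high-score class and G-L142 between the classes.

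The rest of the clock sorted with the score. Among 19 genes of the loop and its output factors other than Dbp and Arntl, 12 were higher and 2 lower in the high-score class at an adjusted p under 0.05 by edgeR's quasi-likelihood test. Over all 15249 genes tested, 38.1% passed (18.3% higher and 19.9% lower), so the clock share of 73.7% has to be read against a background in which more than 1 gene in 3 passed. In 9 of the 19 clock genes the classes did not overlap in CPM, against 5.42% of all genes tested.

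Of the 3 activators 1 was higher, 1 lower and 1 did not pass. Npas2, the partner of BMAL1 that can replace CLOCK, was 0.828, 1.49 and 1.99 CPM (lowest, median and highest) in the high-score class and 2.25, 3.11 and 5.29 CPM in the low-score class. No high-score library reached the lowest low-score library. On the log2 scale Npas2 differed by −1.12, high over low score (SE 0.26, adjusted p = 0.00754), and the call was lost without the F11 library G-L148 (adjusted p = 0.0585). Clock itself overlapped, with medians of 95.2 and 103 CPM and did not pass (log2 −0.10, adjusted p = 0.113). Arntl2, the paralog of Arntl, was higher (log2 0.43, adjusted p = 0.0341), a call also lost without G-L148 (adjusted p = 0.12).

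Of 8 repressors 5 were higher and none was lower. Per2 was 28.4, 40.9 and 54.1 CPM in the high-score class and 20.7, 23.2 and 26.6 CPM in the low-score class (log2 0.92, SE 0.13, adjusted p = 0.00342). Per3 was 51.5, 69.0 and 83.6 CPM against 27.4, 38.7 and 46.3 CPM (log2 0.77, SE 0.12, adjusted p = 0.00342). Every high-score library exceeded every low-score library for both genes. Cry2 (log2 0.49, adjusted p = 0.00365) and Ciart, an inhibitor of the BMAL1 complex (log2 0.77, adjusted p = 0.00504), also had classes that did not overlap. Per1 was higher (log2 0.70, adjusted p = 0.0297) with overlapping classes of 48.1 to 138.98 and 34.2 to 79.6 CPM, and its call was lost without G-L137 (adjusted p = 0.11). Cry1 did not pass, with medians of 11.08 and 10.99 CPM (log2 0.06, SE 0.08, adjusted p = 0.55). Bhlhe40 and Bhlhe41, which compete for E-boxes, did not pass (log2 −0.16 and −0.14, adjusted p = 0.393 and 0.179).

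All 5 receptors of the REV-ERB and ROR families had positive fold changes, and 4 passed. Nr1d1 was 129, 177 and 206 CPM in the high-score class and 75.1, 95.1 and 112 CPM in the low-score class (log2 0.92, SE 0.13, adjusted p = 0.00342). Nr1d2 was 107, 130 and 135.2 CPM against 82.3, 88.6 and 106 CPM (log2 0.40, SE 0.08, adjusted p = 0.00403). Neither gene overlapped between the classes. Rora was slightly higher (log2 0.17, adjusted p = 0.0123). Rorb was at about 1 CPM and did not pass (log2 0.47, adjusted p = 0.169).

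The output factors split by their known phase. Tef was 140, 176 and 190 CPM in the high-score class and 81.4, 106 and 123 CPM in the low-score class (log2 0.65, SE 0.10, adjusted p = 0.00342). Hlf was higher with a small overlap (log2 0.80, SE 0.16, adjusted p = 0.00483). Nfil3, a repressor that binds the same D-boxes and peaks opposite to DBP, was 2.39, 3.61 and 4.52 CPM against 5.07, 6.84 and 8.85 CPM (log2 −0.84, SE 0.18, adjusted p = 0.0054). Its classes did not overlap.

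**Figure D2:**
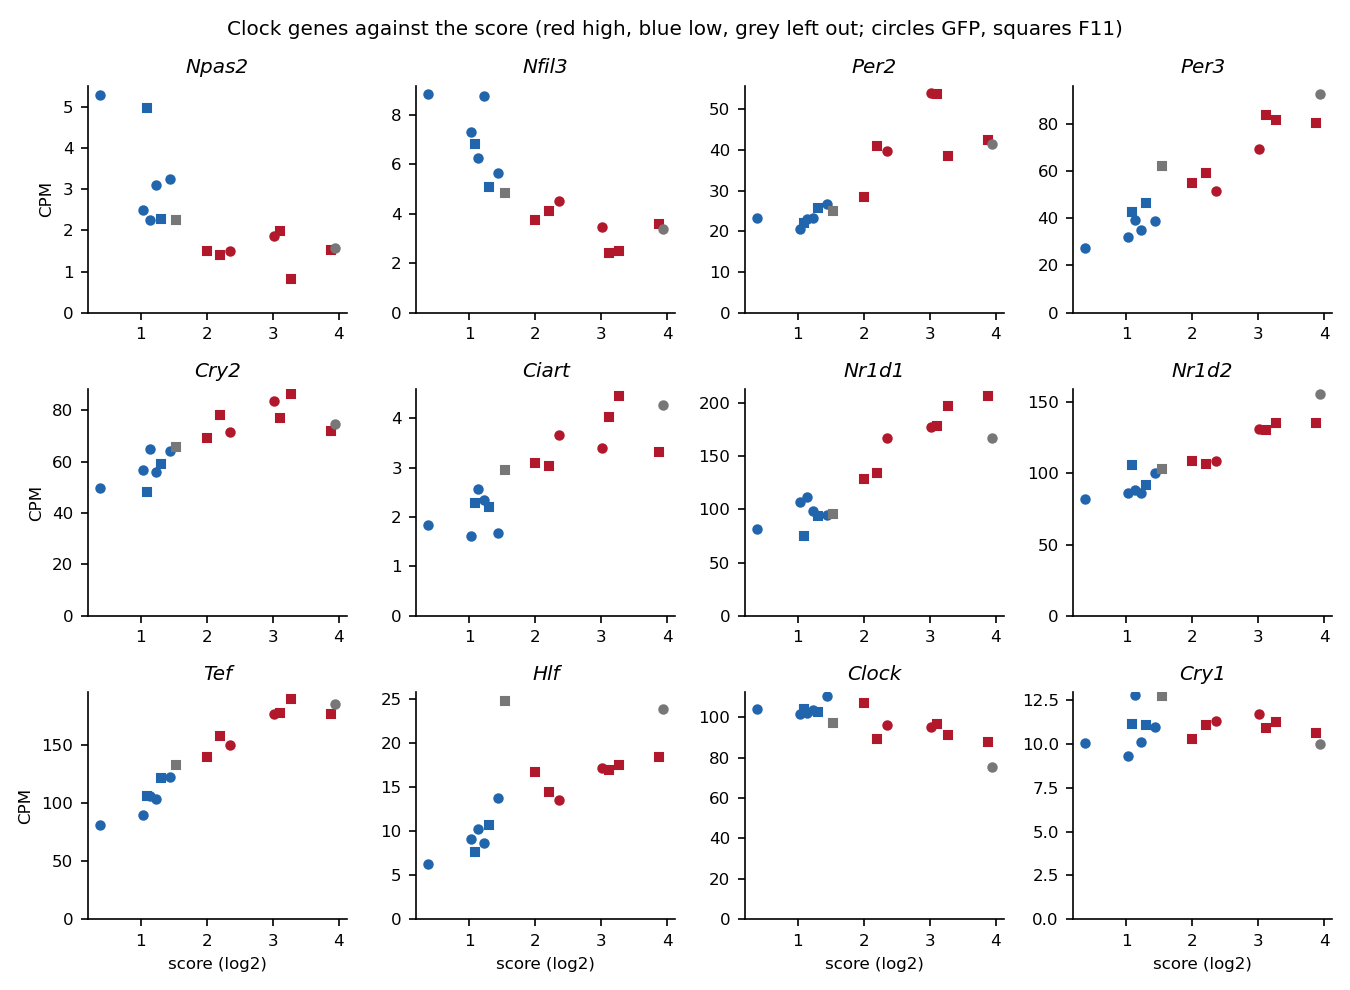
Level of 12 clock genes (CPM) against the score in 16 adipose libraries, with colours for the classes and symbols for the vectors. Per2, Per3, Nr1d1 and Tef rise and Npas2 and Nfil3 fall from the low-score to the high-score class, while Cry1 lies at the same level in both.

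Promoters of these genes were searched for the elements named above, and 5 are printed because they pair a match with a gene that followed the score, or, for Cry1, with one that did not pass. RefSeq windows on GRCm38.p6, from 250 bases before to 50 after a start, matched 18 of 21 clock genes, Dbp and Arntl included, and 7 of the 18 held none of the motifs in these windows. Both strands were searched for the E-box CACGTG, the related E-prime box CACGTT, the D-box (TTATGTAA or TTACGTAA) and a RORE core (TAGGTCA or TGGGTCA). Each motif was counted on its own, and overlaps between motifs were not removed. Capitals mark the matches, the strand is that of the gene, and only bases before the first annotated exon are shown, except for a 29-base site of Nfil3.
Ciart, chr3:95882252-95882478, minus strand, with 3 E-boxes: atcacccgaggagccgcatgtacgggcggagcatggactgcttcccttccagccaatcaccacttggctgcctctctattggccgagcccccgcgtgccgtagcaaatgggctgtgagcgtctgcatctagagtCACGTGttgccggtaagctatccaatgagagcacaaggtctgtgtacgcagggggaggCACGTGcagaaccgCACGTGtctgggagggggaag
Nr1d1, chr11:98775378-98775627, minus strand, with 1 E-prime box: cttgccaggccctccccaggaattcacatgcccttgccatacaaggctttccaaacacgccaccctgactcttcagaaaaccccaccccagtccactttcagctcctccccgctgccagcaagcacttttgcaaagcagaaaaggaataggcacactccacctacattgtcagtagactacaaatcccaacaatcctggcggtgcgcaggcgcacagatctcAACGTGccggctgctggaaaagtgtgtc
Per3, chr4:151044666-151044915, minus strand, with 2 D-boxes: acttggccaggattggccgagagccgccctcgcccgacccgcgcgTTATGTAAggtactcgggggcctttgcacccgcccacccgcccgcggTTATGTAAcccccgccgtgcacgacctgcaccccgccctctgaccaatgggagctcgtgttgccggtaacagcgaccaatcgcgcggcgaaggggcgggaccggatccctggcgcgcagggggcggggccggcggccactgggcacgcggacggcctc
Cry1, chr10:85185065-85185304, minus strand, with 1 E-prime box and 1 E-box: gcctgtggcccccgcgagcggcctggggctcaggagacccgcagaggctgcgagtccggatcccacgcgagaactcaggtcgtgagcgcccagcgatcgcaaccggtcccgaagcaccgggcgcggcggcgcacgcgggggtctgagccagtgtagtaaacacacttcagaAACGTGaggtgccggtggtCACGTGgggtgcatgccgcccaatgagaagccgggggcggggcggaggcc
Nfil3, chr13:52981034-52981062, minus strand, with 1 RORE core: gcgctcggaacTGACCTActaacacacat
An E-box stood in 6 of the 24 clock windows (25.0%), of 5 genes, and in 7.15% of all 32851 windows. The E-prime box stood in 4 clock windows (16.7%) and in 4.68% of all windows. The D-box was found in 1 clock window, that of Per3 (4.17%), and in 1.06% of all windows. The RORE core was found in 2 clock windows, of Arntl and Nfil3 (8.33%), and in 6.45% of all windows. Shares that rest on so few windows were not tested. Among windows of genes higher in the high-score class the E-box share was 8.31%, and among windows of lower genes 10.9%, with 9.31% for all genes tested. The D-box stood in 1.06% of windows of higher genes, 0.64% of windows of lower genes and 0.765% of windows of all genes tested. For the E-prime box these shares were 4.9, 4.55 and 5.17%. A match is a description of the sequence and not a bound site.

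Of 9 kinases and ubiquitin ligases that set the stability of PER and CRY, 4 were higher and 1 was lower. The share passing was 55.6%, against 38.1% of all genes tested. Fbxl21, a ligase for CRY, changed most (log2 0.97, SE 0.20, adjusted p = 0.00493) at a median of 1.83 against 0.866 CPM. Btrc and Csnk1e were higher by log2 0.22 and 0.23 (adjusted p = 0.0199 and 0.0341), and both failed without G-L137 (adjusted p = 0.064 and 0.147). Gsk3b was lower (log2 −0.33, adjusted p = 0.0113, and 0.0553 without G-L148). Csnk1d, Csnk1a1 and Fbxw11 had fold changes between −0.08 and 0.01 on the log2 scale (adjusted p = 0.137, 0.404 and 0.925). Usp2, a deubiquitinase known to cycle in many organs, had none (log2 0.0008, SE 0.23, adjusted p = 0.999). Its low-score median was 6.71 CPM, with 17.2 CPM in G-L138.

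Genes known to cycle in many organs gave a mixed picture, with 6 of 19 higher, 4 lower and 9 not passing. The share passing was 52.6%, against 38.1% of all genes tested. Por, the electron donor of cytochrome P450 enzymes, was 235, 334 and 362 CPM in the high-score class and 190, 205 and 226 CPM in the low-score class (log2 0.64, SE 0.10, adjusted p = 0.00342). Tns2, a focal adhesion protein, was 206, 290 and 329 CPM against 130, 160 and 194 CPM (log2 0.84, SE 0.13, adjusted p = 0.00342). Neither gene overlapped. Pim3 (log2 0.87), Klf9 (0.61), Tsc22d3 (0.61) and Nampt, which makes the NAD precursor NMN (0.26), were also higher, with adjusted p of 0.00403, 0.00365, 0.0154 and 0.00409. The call of Tsc22d3 was lost without the GFP library G-L136 (adjusted p = 0.0584). Dtx4 was lower without overlap (log2 −0.88, SE 0.15, adjusted p = 0.00365). Lonrf3, Slc16a1, a monocarboxylate transporter, and Gys2, a glycogen synthase, were lower by 1.55, 0.43 and 0.90 on the log2 scale (adjusted p = 0.00874, 0.0106 and 0.0467). Without G-L148 Lonrf3 and Gys2 did not pass (adjusted p = 0.0525 and 0.149). Tspan4 (log2 0.19, adjusted p = 0.0544), Wee1 (−0.28, 0.0926), Pfkfb3 (0.25, 0.0796), Pdgfd (0.17, 0.0837), Rcan1 (−0.17, 0.122), Leo1 (−0.18, 0.181), Coq10b (−0.06, 0.334) and Alas1 (0.05, 0.655) did not pass.

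The classes differed far beyond the clock. In all, 2787 genes were higher and 3028 lower in the high-score class, with a median absolute log2 fold change of 0.45 among them, and 454 and 526 differed more than 2-fold. Without the F11 library G-L148 the count of 5815 fell to 2691. Among the GFP libraries alone 1178 genes passed and among the F11 libraries alone 1.

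Macrophage markers were lower, and adipocyte and endothelial markers higher, in the high-score class. The marker counts of this paragraph stand against 18.3% higher and 19.9% lower over all genes tested. Of 12 macrophage markers 11 were lower in the high-score class and 1, Cd163, had a positive fold change and did not pass. Their summed level was 1452 to 3623 CPM in the high-score class and 3324 to 6062 CPM in the low-score class. No marker of the list was at 0 over the 14 libraries. The markers of lipid-associated macrophages, the cells that gather around dying adipocytes in obesity, were lower in 10 of 12, summing to 17584 to 25032 CPM against 22629 to 29308 CPM. The genes of that list that adipocytes also express, Lpl and Cd36, did not pass (log2 0.01 and −0.13) but made up a large part of these sums. Lpl was 9392 to 13484 CPM in the high-score class and 10808 to 13601 CPM in the low-score class. Cd36 was 4984 to 6158 CPM against 5283 to 6236 CPM. Gpnmb was 163, 453 and 1253 CPM against 986, 1196 and 3319 CPM (log2 −1.51, SE 0.53, adjusted p = 0.0371). In bulk tissue, fewer cells of a type and less RNA per cell cannot be told apart. Of 10 fibroblast and preadipocyte markers 3 were lower, the matrix genes Col1a1, Col3a1 and Lum. The other 7 did not pass, and the median of the list was log2 −0.10. The summed level of the list was 2912 to 4710 CPM against 5228 to 7662 CPM, and without the 3 matrix genes 1166 to 1567 CPM against 1304 to 1457 CPM. Adipocyte markers were higher in 9 of 10. Adipoq, the adiponectin gene, was 1962, 2533 and 3038 CPM against 953, 1719 and 2105 CPM (log2 0.75, SE 0.19, adjusted p = 0.00946). Lep, the leptin gene, was the exception (log2 −0.39, adjusted p = 0.193). Endothelial markers were higher in 9 of 12. Mural markers were higher in 2 and lower in 1 of 12, mesothelial markers passed in 0 of 12 by edgeR (1 at an unadjusted p under 0.05), and lymphocyte markers were lower in 1 of 12. The share passing was 30% in the fibroblast and preadipocyte list and 25% in the mural list, against 38.1% of all genes tested.

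With the level of the macrophage markers as a further covariate, no gene passed by edgeR (lowest adjusted p = 0.394), and 1504 genes, 9.86% of those tested, had an unadjusted p under 0.05. This alternative was added after seeing the data. Of the 19 clock genes 10 had an unadjusted p under 0.05, and their median log2 fold change was 0.31 against 0.47 without the covariate. Nr1d1 stood at log2 0.49 (SE 0.09, adjusted p = 0.394), Per2 at 0.83 (SE 0.19), Per3 at 0.50 (SE 0.15), Tef at 0.44 (SE 0.12) and Nfil3 at −0.57 (SE 0.25). Npas2 went to −0.47 (SE 0.36). The covariate followed the classes closely, so what belongs to the clock score and what to the marker level cannot be told apart by this fit.

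**Figure D3:**
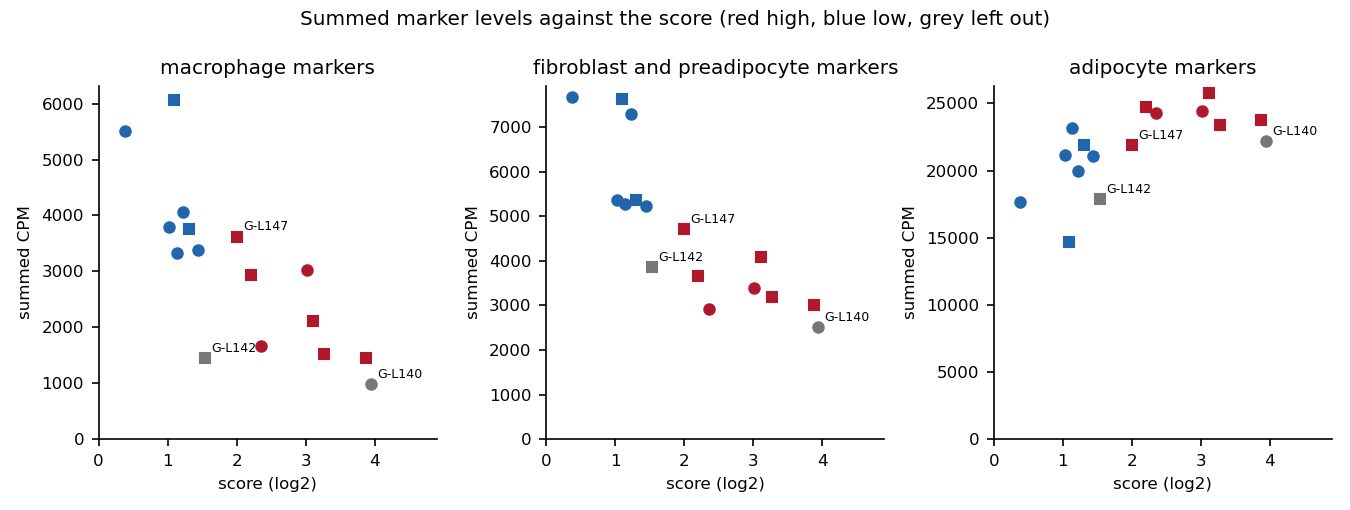
Summed level (CPM) of macrophage, fibroblast and preadipocyte, and adipocyte markers against the score (log2) in 16 adipose libraries. Macrophage levels fall toward high scores, the fibroblast sum falls with its 3 matrix genes, G-L147 lies at a macrophage level of 3623 CPM among the low-score libraries, and G-L142 lies at 1455 CPM.

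G-L147, of the high-score class, held macrophage markers at 3623 CPM, within the range of the low-score class. In it 11 of the 14 called clock genes (78.6%) lay beyond the whole range of the low-score class, as did 27.6% of the 5801 other called genes. In the other 6 high-score libraries 78.6 to 92.9% of the clock genes and 70.2 to 90.1% of the other called genes lay beyond that range, and in G-L136, G-L145 and G-L146 the clock share was the lower of the pair. These differences were not tested. Both sets of genes were called in a fit that held these same high-score libraries, so a position beyond the low-score range is partly set by that choice. G-L140, which the rule did not use, had the highest score, the lowest macrophage level (984 CPM) and 12 of 14 clock genes (85.7%) beyond the low-score range, with 74.7% of the other called genes. Of the genes called higher 77.8% lay above the low-score median there, against 41.4% of all genes tested, and of those called lower 95.9% lay below it, against 58.6%. Nr1d1 was at 167 CPM there, Per3 at 92.6, Tef at 185 and Npas2 at 1.57 CPM. G-L142, also not used, had a macrophage level of 1455 CPM, as low as that of the highest scores, and an intermediate score. In it Nr1d1 (96.0 CPM), Per2 (25.1 CPM) and Npas2 (2.25 CPM) lay within the range of the low-score class, Per3 (62.0 CPM), Tef (133.05 CPM), Hlf (24.9 CPM) and Nfil3 (4.83 CPM) beyond it, and 8 of 14 clock genes (57.1%) and 53.5% of the other called genes were beyond it in all. Against the low-score median the shares were 73.9% of genes called higher (54.5% of all genes tested) and 78.6% of genes called lower (45.5%). Low-score libraries also entered the calls, so these shares in G-L140 and G-L142 are partly set by that choice. G-L142 also held 8644 CPM of epididymis and testis markers, against at most 21.7 CPM in the classed libraries, and G-L140 held 11.1% mitochondrial transcripts. The part of this other tissue in their values was not tested.

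**Figure D4:**
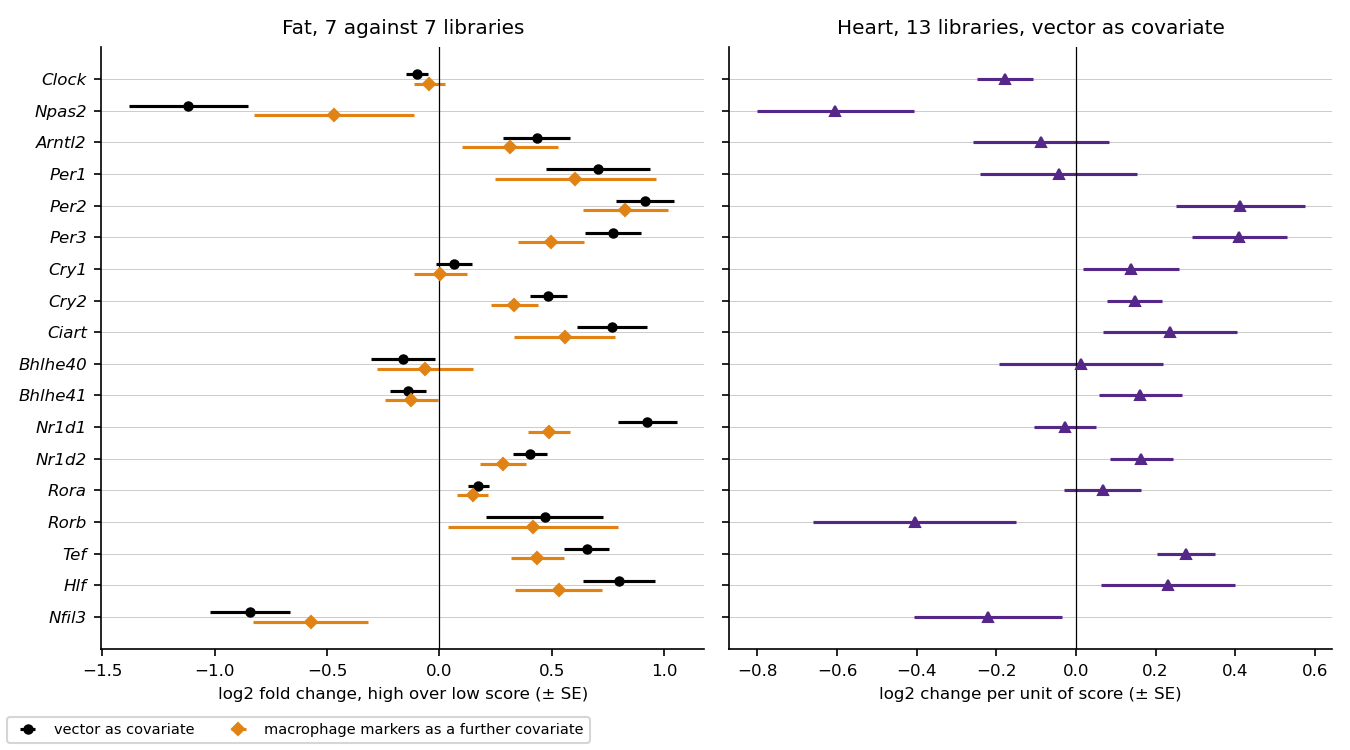
Log2 fold changes (± SE) of 18 clock genes between the score classes in fat, with the vector as covariate and with macrophage markers as a further covariate, and log2 change per unit of score (± SE) in 13 heart libraries. Nr1d1 keeps a log2 fold change of 0.49 in fat with the further covariate and has a slope of −0.03 in heart.

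Heart libraries, which the rule did not use, gave a separate view of the same genes. Their scores were 1.49 to 2.31 with GFP and 3.78 to 4.92 with F11, so that the classes would equal the vectors, and a slope on the score was fitted within the vectors instead. No gene passed by edgeR among 14682 tested (lowest adjusted p = 0.9998, 0% called), 473 (3.22%) had an unadjusted p under 0.05, and DESeq2 called 3. Of the 19 clock genes 6 had an unadjusted p under 0.05. Per2, Per3, Cry2 and Tef had slopes of 0.41, 0.41, 0.15 and 0.28 (log2 per unit of score), and Npas2 and Clock of −0.60 and −0.18. The sign was that found in fat for each. Nr1d1 had a slope of −0.03 (SE 0.08) and Per1 of −0.04 (SE 0.20). Whether the slopes differ between the tissues was not tested.

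Targets of the glucocorticoid receptor, the receptor of a hormone that itself follows the day, were higher in 7 of 14 and lower in none, 3 of them (Per1, Klf9 and Tsc22d3) shared with the clock lists. Over all genes tested 18.3% were higher and 19.9% lower. Zbtb16, a zinc finger factor, was 53.6, 95.4 and 152 CPM in the high-score class and 36.02, 55.1 and 69.7 CPM in the low-score class (log2 1.07, SE 0.18, adjusted p = 0.00365). Fkbp5, a chaperone of the receptor, was higher (log2 0.67, adjusted p = 0.0101) with ranges of 61.7 to 131 and 54.7 to 113 CPM. The classes overlapped for all 14 targets. With macrophage markers as a covariate 7 of the 14 had an unadjusted p under 0.05, against 9.86% of all genes tested. The median log2 fold change of the targets was then 0.52, against 0.53 without. In heart none of the 14 had a positive slope on the score.

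Triglyceride storage and lipolysis genes were higher in 9 of 16 and lower in none. For this list and the others of this paragraph, the shares over all genes tested were 18.3% higher and 19.9% lower. Lpin1, a phosphatidate phosphatase of triglyceride synthesis, was 467, 567 and 615 CPM against 307, 361 and 409 CPM and had the lowest p of all genes (log2 0.71, SE 0.08, adjusted p = 0.00342). No library overlapped. Lipe, hormone-sensitive lipase, and Plin4, a lipid droplet protein, were higher by log2 0.70 and 0.66 (adjusted p = 0.00504 and 0.00635). Insulin signalling genes were higher in 9 of 14 and lower in 1. Slc2a4, the glucose transporter GLUT4, was 79.0, 124 and 134.7 CPM against 41.9, 70.4 and 78.3 CPM (log2 1.03, SE 0.18, adjusted p = 0.00382). Pde3b, which ends the lipolytic cAMP signal, and Foxo1 were higher by log2 0.60 and 0.58 (adjusted p = 0.00407 and 0.00372). Fatty acid synthesis genes were higher in 7 of 16 and lower in 1, with Thrsp at log2 1.65, Mlxipl at 0.67 and Acaca at 0.66 (adjusted p = 0.00504, 0.00483 and 0.00487). These lists share members with the adipocyte markers, which were also higher. With macrophage markers as a covariate the median log2 fold change went from 0.31 to 0.09 for storage and lipolysis, from 0.30 to 0.13 for insulin signalling and from 0.25 to −0.05 for fatty acid synthesis. An unadjusted p under 0.05 was then found for 2 of 16, 6 of 14 and 2 of 16 genes, against 9.86% of all genes tested.

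Cholesterol synthesis genes went the other way, with 9 of 15 lower and 1 higher. The shares over all genes tested were 19.9% lower and 18.3% higher. Srebf2, the factor that drives the pathway, was 43.0, 45.9 and 55.3 CPM against 59.5, 63.7 and 85.1 CPM (log2 −0.50, SE 0.09, adjusted p = 0.00365). Fdft1, squalene synthase, was the higher member (log2 0.52, adjusted p = 0.00394). Fatty acid oxidation genes were at the background, with 3 of 16 higher and 3 lower. Acadvl was higher by log2 0.30 (adjusted p = 0.0101) and Cpt1a was lower by 0.46 on the log2 scale (adjusted p = 0.00631). Hepatocyte transcripts were higher in the same class, as given below. Adipokines were higher in 6 of 10 and lower in none, with Cfd, the protease adipsin, at log2 2.07, Retn at 1.61 and Rbp4 at 1.23 (adjusted p = 0.006, 0.00668 and 0.00395).

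Cell cycle, matrix and secretory genes were lower. The counts of this paragraph stand against 19.9% lower and 18.3% higher over all genes tested. Of 16 cell cycle genes 14 were lower and 1 was higher. Top2a, a topoisomerase of dividing cells, was 17.6, 19.2 and 29.2 CPM against 31.6, 46.4 and 66.0 CPM (log2 −1.251, SE 0.17, adjusted p = 0.00342), with no overlap. Aurkb and Ccna2 were lower by 0.97 and 1.12 on the log2 scale (adjusted p = 0.00342 each). Collagens were lower in 9 of 12, among them Col3a1, Col5a2 and Col6a3 at log2 −1.19, −0.76 and −0.81 (adjusted p = 0.00342 each) and Col1a1 at −1.30 (adjusted p = 0.00416). Chaperones of the endoplasmic reticulum were lower in 12 of 18 and higher in 1, with Hspa5, Calr and Canx at log2 −0.43, −0.49 and −0.33 (adjusted p = 0.00365, 0.00365 and 0.00366). Immediate early genes were lower in 6 of 14 and higher in 1, with Egr2, Egr3 and Junb at log2 −1.40, −1.03 and −0.66 (adjusted p = 0.0118, 0.00664 and 0.0111). Macrophage markers were lower in the same class, and their part in these lists was not tested beyond the covariate fit. In that fit 9 of 16 cell cycle genes, 5 of 12 collagens, 5 of 18 chaperones and 0 of 14 immediate early genes had an unadjusted p under 0.05. The share over all genes tested was 9.86%. With that covariate the median log2 fold change of the immediate early genes went from −0.22 to 0.06.

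Heat shock and interferon lists passed less often than the 38.1% of all genes, and this difference was not tested. Heat shock proteins were lower in 3 of 16 and higher in 1, with Hsph1 and Hspa8 at log2 −0.59 and −0.28 (adjusted p = 0.0063 and 0.0105) and Hspb1 at 0.60 (adjusted p = 0.0134). Interferon-stimulated genes were higher in 3 of 18 and lower in 2, namely Mx1 and Oas1a (log2 −0.57 and −0.53, adjusted p = 0.00716 and 0.00766), while Xaf1 was higher (log2 0.38, adjusted p = 0.0218). The cold-inducible Cirbp was higher (log2 0.32, adjusted p = 0.0214) and Rbm3 lower (−0.38, adjusted p = 0.0153). Nuclear genes of oxidative phosphorylation were higher in 11 of 18 and lower in none, by small amounts (median log2 0.23). Ndufv1 and Sdha were higher by log2 0.30 and 0.28 (adjusted p = 0.00506 and 0.00655). Transcripts of the mitochondrial genome were higher in 9 of 13 (median log2 0.37), among them mt-Atp6, mt-Nd5 and mt-Atp8 at log2 0.61, 0.40 and 0.44 (adjusted p = 0.00716, 0.0123 and 0.013). With macrophage markers as a covariate the medians of these 2 lists went to log2 0.05 and 0.01. An unadjusted p under 0.05 was then found for 0 of 18 nuclear genes and 0 of 13 mitochondrial transcripts, against 9.86% of all genes tested.

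**Figure D5:**
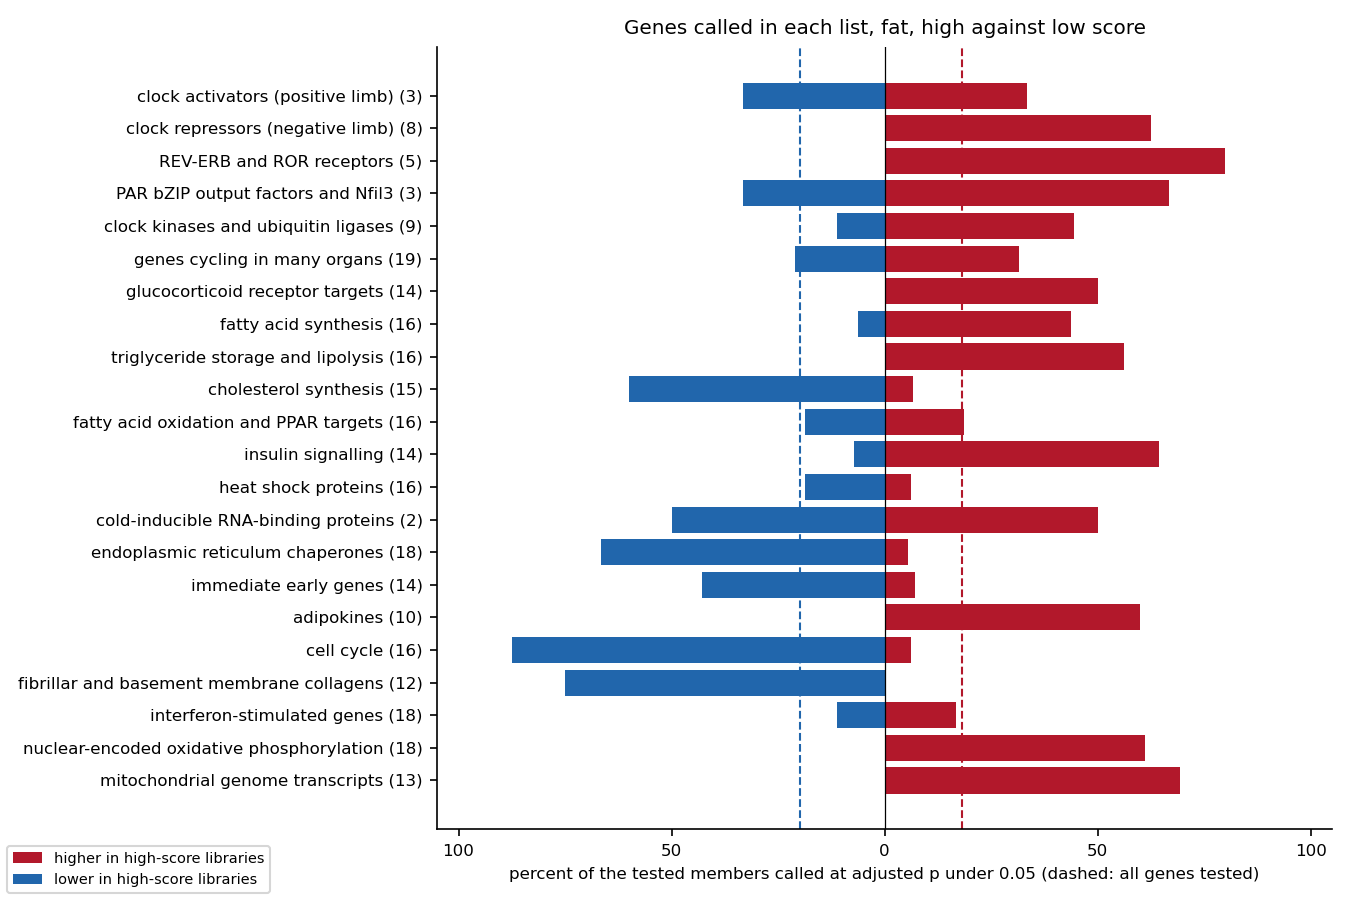
Percent of the tested members of each list that were higher (right) or lower (left) in the high-score class at an adjusted p under 0.05, with the number tested in parentheses and dashed lines at the share of all genes tested (18.3% higher and 19.9% lower). Clock repressors, REV-ERB and ROR receptors and adipokines lie to the right, and cell cycle genes, collagens and chaperones of the endoplasmic reticulum to the left.

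The genes with the largest fold changes were not clock genes. The 12 largest positive changes were all of transcripts known from the liver, from Apoa4 (log2 5.92, SE 1.252, adjusted p = 0.00579), Cyp3a11 (5.89), Mbl2 (5.50), Saa1 (5.49) and Cyp2a5 (5.34) to Mup20 (5.30), Cyp2c68 (5.21), Hamp (5.11), Hsd17b13 (4.904), Ambp (4.89), F12 (4.86) and Cyp1a2 (4.86). All 11 hepatocyte markers measured were higher, against 18.3% of all genes tested. Alb, the albumin gene, was 7.32, 995 and 3255 CPM in the high-score class and 34.3, 48.5 and 244 CPM in the low-score class. It exceeded 1000 CPM in G-L136, G-L145 and G-L146, was lowest of all in the high-score library G-L141, and was 32.5 CPM in G-L140, which had the highest score. Without the 3 libraries over 1000 CPM, 959 genes passed, 533 higher and 426 lower.

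The 12 largest negative changes were Cacng5 (log2 −3.18), Sptlc3 (−3.01), Gpx5 (−2.94), Nptx1 (−2.76), Serpinb1c (−2.66), Itgad (−2.64), Tph2 (−2.59), Arl14epl (−2.58), Sstr2 (−2.48), Timp1 (−2.44), Myh15 (−2.34) and Hmga2 (−2.30). Tph2, a tryptophan hydroxylase, was 2.24, 9.78 and 65.7 CPM in the high-score class and 71.8, 110 and 148.5 CPM in the low-score class (SE 0.72, adjusted p = 0.015). Timp1, an inhibitor of matrix proteases, was 1.75, 4.14 and 10.6 CPM against 11.4, 20.6 and 44.0 CPM (SE 0.44, adjusted p = 0.00395). Sstr2, a somatostatin receptor, was 0.102, 0.227 and 0.337 CPM against 0.642, 1.01 and 1.93 CPM. These 3 genes did not overlap between the classes, and the other 9 did. Itgad, an integrin of macrophages, was 0.42, 3.34 and 21.2 CPM against 17.9, 29.7 and 45.0 CPM. G-L147 held the highest high-score value of Tph2, Timp1 and Itgad. Gpx5 is known from the epididymis and reached 13.1 CPM in G-L143.

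Whether the difference between the score classes itself differed between the vectors was tested as an interaction. Only 2 high-score GFP and 2 low-score F11 libraries entered it. Of 15249 genes 1 passed (0.00656%), the unnamed gene model Gm48493, and 259 (1.7%) had an unadjusted p under 0.05. Without G-L136, G-L137, G-L143 or G-L148, each left out alone, the count was 0. No clock gene passed, and Per2 had log2 fold changes of 1.03 in GFP and 0.81 in F11 libraries, Nr1d1 of 0.82 and 1.03, and Npas2 of −0.94 and −1.29.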

How the data were processed

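Heart and white adipose RNA was sequenced, and 29 libraries had a column of values. The authors deposited estimated counts per gene, made with kallisto 0.46 on GRCm38.p6 per the submitters' processing notes and not scaled to depth. Not given in the sources used here: annotation release, strand setting and summing to genes. Overlapping genes and gene families are therefore uncertain. Symbols and coordinates came from GENCODE M21 (GRCm38) for 35935 of 36558 IDs. Groups came from sample titles. No pair of adipose libraries in a group was near-identical (lowest chi-square per degree of freedom 8.88).

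Counts were rounded and fitted with edgeR 4.0.16 in R 4.3.3: filterByExpr by class, TMM (factors 0.961 to 1.025), quasi-likelihood with robust estimation, vector as covariate, Benjamini-Hochberg over all genes other than Dbp and Arntl, threshold 0.05. Printed CPM values use column sums, as the score does, and fold changes use TMM. Marker covariates are means of log2(CPM + 1). Totals of 16.76 to 26.33 (1e6 counts) limit the precision of genes near 1 CPM. On simulated data with 50 genes per fold over 15251 genes, the fat comparison recovered 16, 60, 76 and 100% of genes changed 1.25, 1.5, 2 and 4-fold, with 2 false calls among 128. Changed genes were taken from those with higher counts, and genes were simulated independently. The rates therefore need not hold for genes near 1 CPM or for the real libraries, where 38.1% of genes passed.

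Genes named are the tested members of the clock lists, the 12 largest changes in each direction among called genes with an ordinary symbol, at least 1 CPM in 1 class and 6 of 7 high-score libraries beyond the low-score median, and up to 3 called members of each other list. Some genes that this rule takes are not reported here, though list counts include them. Named cell type markers, and Lep and Gm48493, were picked after their values were seen. Members and lists were chosen with earlier results of these data known. Alternatives were RLE size factors, other filters, DESeq2 1.42.0, limma 3.58.1 voom, a surrogate variable from sva 3.50.0, the score as a number, other classes and library omissions. Marker covariates and the omission of Alb-rich libraries were added after seeing the data.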

Additional observations from a re-analysis of the deposited data

Results flagged for a closer look

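Within each class of 7 libraries, 116 named genes were screened for a library far from the others by Dixon's criterion. Of 232 groups 25 were marked (10.8%). Chance marks about 1 in 20 where values are normally distributed, which was not checked for these CPM values. Many of the genes were named for large changes and may vary together, so the marks need not be separate events. Of the 25, 16 were the high-score library G-L147. That library held the highest high-score CPM of Gsk3b (141.3), Lonrf3 (7.462), Cacng5 (0.8749), Sptlc3 (3.397), Nptx1 (3.771), Serpinb1c (1.165), Itgad (21.19), Tph2 (65.72), Arl14epl (1.749), Timp1 (10.6), Myh15 (7.308), Hmga2 (2.934), Cpt1a (224.9) and Col6a3 (494.2), and the lowest of Lipe (1102) and Slc2a4 (79.05). In the same class Arntl2 was high in G-L144 (13.25 CPM) and Csnk1a1 low in G-L136 (257.5 CPM). In the low-score class G-L138 was high for Clock (110.7 CPM), Usp2 (17.15 CPM) and Apoa4 (2.186 CPM), G-L139 for Cyp2a5 (2.94 CPM), Hamp (1.711 CPM) and Cyp1a2 (2.352 CPM), and G-L143 for Gpx5 (13.07 CPM).

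The score effect of Gm48493 differed between the vectors (interaction log2 6.07, edgeR adjusted p = 0.0146). Its level was 0.362 and 0.485 CPM in G-L143 and G-L148, the low-score F11 libraries, and 5.04 to 17.7 CPM in the other 12.

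In the libraries left out by the rule, G-L142 held 8644 CPM of epididymis and testis markers. G-L140 held 188.4 CPM of thermogenic adipocyte markers and 300.8 CPM of skeletal muscle markers, against at most 77.4 and 69.4 CPM in the 14 classed libraries. Cpt1b gave 99.6 CPM of the thermogenic sum, while Ucp1, Dio2 and Elovl3 were at 0.251, 0.439 and 0.251 CPM. Ckm and Acta1 gave 165.8 and 82.7 CPM of the muscle sum, while Myh1 and Myh2 were at 0.313 and 0.682 CPM. In the heart libraries Cpt1b was 571 to 677 CPM and Ckm 1062 to 1244 CPM. The tissue behind these sums was not tested.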

How the results depend on the processing

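The count of 5815 genes between the score classes stayed within 1.5 times under other size factors, filters, tools, scores, class sizes, a surrogate variable and a threshold of 0.1 (5062 to 7289). It was 1178 in GFP and 1 in F11 libraries alone, 959 without the libraries over 1000 CPM of Alb, and 0 with macrophage, lipid-associated macrophage, adipocyte or hepatocyte marker covariates (lowest adjusted p = 0.394, 0.247, 0.91 and 0.144, with 1504, 1658, 693 and 2754 genes at an unadjusted p under 0.05). Leaving out single libraries gave 2691 (without G-L148) to 6613. The interaction count of 1 was 0 with the score as a number and 0 to 1 without single libraries. The heart count of 0 was 3 with DESeq2, 125 without the vector covariate and 0 without any single library. The score difference between vectors ran from 0.653 to 1.15 without single libraries, and only without G-L137 did it pass. No paired analysis was possible because no library number recurs between the groups. Of 99 named genes called, 77 kept their call without G-L148 and 44 without the libraries over 1000 CPM of Alb. In GFP libraries alone 51 kept it, and in F11 libraries alone or with each marker covariate 0 did. The cause of these changes was not tested. Fewer libraries enter each omission.

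Signs turned, in log2, for genes with small changes or with marker covariates. With adipocyte markers these were Cry1 (−0.032), Bhlhe40 (0.26), Bhlhe41 (0.037), Csnk1d (0.0058), Usp2 (−0.084), Wee1 (0.12), Coq10b (0.037), Rcan1 (0.13), Pfkfb3 (−0.015), Serpinb1c (0.016), Junb (0.036) and Xaf1 (−0.0013). With macrophage and lipid-associated macrophage markers they were Csnk1d (0.016 and 0.0070), Usp2 (−0.27 and −0.21), Wee1 (0.045 and 0.037) and Rcan1 (0.016 and 0.013). With hepatocyte markers they were Usp2 (−0.20), Leo1 (0.013), Cyp3a11 (−0.14), Saa1 (−0.056), Cyp2a5 (−0.90), Mup20 (−0.41), Hsd17b13 (−0.016), Ambp (−0.18) and Cyp1a2 (−0.75). In F11 libraries alone they were Cry1 (−0.0074), Fbxw11 (−0.017) and Alas1 (−0.024). Fbxw11 was −0.014 with the score as a number, −0.011 without the vector covariate and −0.018 over 16 libraries. Usp2 was −0.0010 with RLE, −0.0011 with DESeq2, −0.15 without the vector covariate, −0.19 in GFP libraries, −0.075 with a surrogate variable and −0.020 without Alb-rich libraries. Alas1 was −0.020 with the score as a number and −0.036 without Alb-rich libraries. Without single libraries Fbxw11 ran from −0.024 to 0.051, Usp2 from −0.067 to 0.18 and Alas1 from −0.051 to 0.10.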
